A study of Mus musculus with 4 samples.

Results

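Mammary epithelial and mesenchymal cells of the E14.5 embryo were compared within the 1 library of that stage, across all genes. The cells were chosen by their counts of unique molecular identifiers (UMIs, each standing for 1 captured RNA molecule) of 9 genes. A cell was kept when it had at least 5000 UMIs and at most 6% of them from mitochondrial genes. For each kept cell, the UMIs of Epcam, Krt8, Krt18, Krt5, Krt14 and Krt15 were added to an epithelial sum, and those of Col1a1, Col1a2 and Col3a1 to a collagen sum. Epithelium was defined as cells whose epithelial sum was at least 10 and over 2 times the collagen sum, with at least 3 UMIs of Krt8 and Krt18 together. Mesenchyme was defined as cells whose collagen sum was at least 10 and over 2 times the epithelial sum. Of 807 barcodes, 76 passed the filters (9.42%, exact 95% interval 7.49 to 11.6), of which 29 were epithelial, 31 were mesenchymal and 16 met neither definition. The 4 libraries of the series held 1630 cells that passed the filters, of 5896 barcodes.

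All libraries came from the mammary gland of female WT C57B6 mice (of the B6/N substrain in the study's methods) without treatment, taken on embryonic days E13.5, E14.5 or E15.5 or on the day of birth. Buds of several embryos were pooled, dissociated with enzymes, and sorted into EpCAM-positive and EpCAM-negative cells after removal of dead cells and of cells that carried CD45, CD31 or Ter119. Each stage is 1 library made with the 10x Genomics 3′ kit, so the data hold no replicate and no test was made between groups. Every interval given here is a 95% interval that covers counting error only, and neither the spread between embryos nor that between sessions is known. Intervals of levels and of ratios take each UMI as a separate count, so the spread between cells is not covered either.

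The embryonic mammary bud is a knot of ectodermal cells that sinks into the underlying mesenchyme and later sprouts to form the ductal tree. Epithelial cells are joined by tight junctions, adherens junctions and desmosomes and stand on a basement membrane, whereas mesenchymal cells are loosely arranged and secrete the fibrillar matrix around them. Growth of the bud depends on signals that pass between these tissues in both directions, among them parathyroid hormone-like hormone from the bud and fibroblast growth factors from the mesenchyme.

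The 29 epithelial cells held 799640 UMIs, with 5440 to 63137 in a cell and a median of 26725. The 31 mesenchymal cells held 838030 UMIs, with 11076 to 55488 in a cell and a median of 24268. Depth was therefore similar between the groups. The epithelial sum ran from 18 to 256 UMIs in epithelial cells (median 88) and from 0 to 18 in mesenchymal cells, of which 18 had none. The collagen sum ran from 88 to 1064 UMIs in mesenchymal cells (median 355) and from 0 to 8 in epithelial cells, of which 12 had none. Near the limit on Krt8 and Krt18, 6 of the 29 epithelial cells held 3 or 4 UMIs of these keratins, while in the 16 remaining cells 10 held 0, 3 held 1 and 3 held 2. No barcode of a kept cell was shared with another library, and over all barcodes the E14.5 library shared 1 with the E15.5 library.

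Markers of both groups are given as a description. Cldn7, Dach2 and Twist1 are also among the leading genes of this same contrast, so they do not check the labels. Cldn7, a claudin of tight junctions, had at least 1 UMI in 29 of 29 epithelial cells and in 0 of 31 mesenchymal cells, which allows a share of up to 9.68% of cells with a UMI (3 cells of 31) and sets no limit on cells that express it below detection. Dach2, a transcription cofactor of the Dachshund family, was detected in 26 of 29 epithelial cells and in 2 of 31 mesenchymal cells. Twist1, a basic helix-loop-helix factor of mesenchyme, was detected in 30 of 31 mesenchymal cells and in 4 of 29 epithelial cells. The genes of the definition were far apart as the choice of cells requires. In UMIs per 1000000 UMIs of a group (CPM), Krt14 stood at 1698 in epithelium and 10.7 in mesenchyme, Krt8 at 268 and 0, and Col1a1 at 16.3 and 5187.

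**Figure D1:**
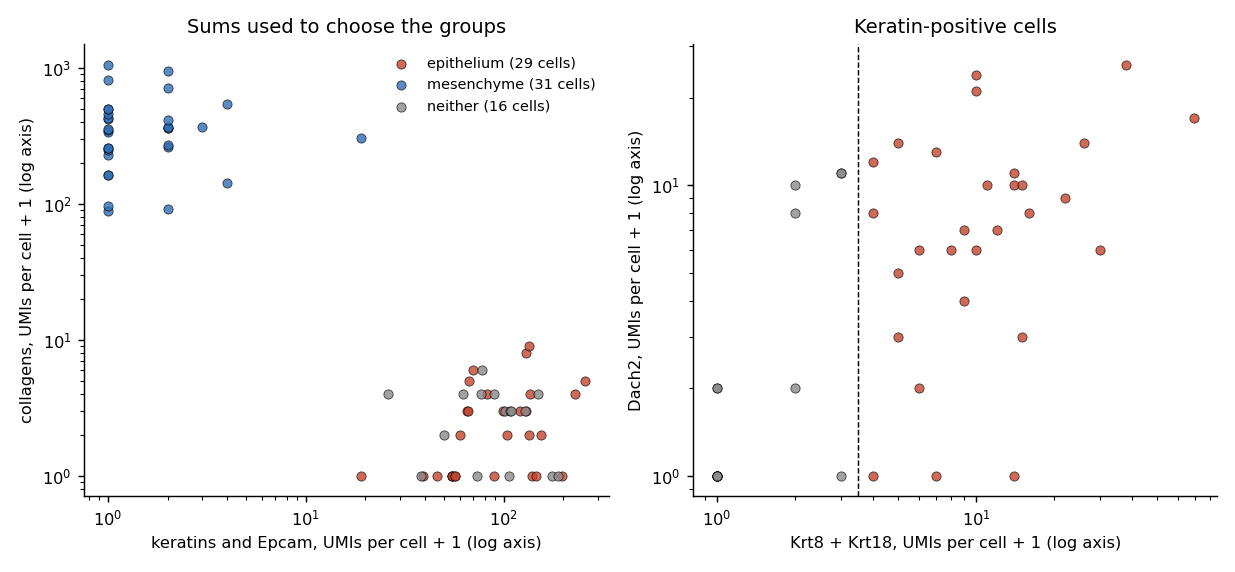
Left, UMIs of the keratin and Epcam sum against UMIs of the collagen sum in each of the 76 kept cells, and right, UMIs of Krt8 and Krt18 against UMIs of Dach2 in the keratin-positive cells, on log axes with 1 added; each point is 1 cell, and the dashed line marks the minimum of 3 UMIs. Mesenchymal cells lie apart from all others, whereas the 16 cells of neither group lie among the epithelial cells on the left and to the left of the line on the right.

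Markers of most other cell types were rare in both groups. The 10 pericyte and smooth muscle markers were higher, with 307 UMIs in epithelium and 119 in mesenchyme. The 11 leukocyte markers had 0 UMIs in epithelium and 3 in mesenchyme, the 9 erythroid markers had 2 and 0, the 11 skeletal muscle markers had 2 and 32, the 8 neuron markers had 2 and 28, and the 10 endothelial markers had 6 and 65. Of the last, 41 were of Ramp2, a receptor component that is not restricted to endothelium. Of the 73 epithelial UMIs of the 12 melanocyte and Schwann cell markers, 65 were of Erbb3, a neuregulin receptor that epithelia also express. Skin markers were higher in epithelium. The 12 suprabasal markers summed to 500 CPM in epithelium (range over cells 0 to 1977) and 45.3 CPM in mesenchyme (0 to 271). Of the 400 epithelial UMIs, 297 were of Lgals7 and 34 of Krtdap, which had 0 in mesenchyme. The defining keratins Krt1 and Krt10 had 2 and 31. The 10 periderm markers summed to 819 CPM in epithelium (0 to 2272) and 20.3 in mesenchyme (0 to 183). Krt17 gave 146 of the 655 epithelial UMIs and Krt6a 1. How far cells of the skin surface contribute to the epithelial group was not tested.

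Across all genes, the groups were similar for most genes and far apart for a small part of them. Levels were compared as the log2 ratio of summed CPM with 10 CPM added to both groups, which keeps low genes from giving large ratios, for the 8439 genes with at least 20 UMIs over both groups and outside the definition. The median log2 ratio was 0.03, and 74.9% of the genes were within 2-fold. With 10 CPM added, 260 genes (3.08%) were at least 4-fold higher in epithelium and 400 genes (4.74%) at least 4-fold higher in mesenchyme. Since the cells were chosen by genes of this same contrast, these counts are a description and not a test.

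**Figure D2:**
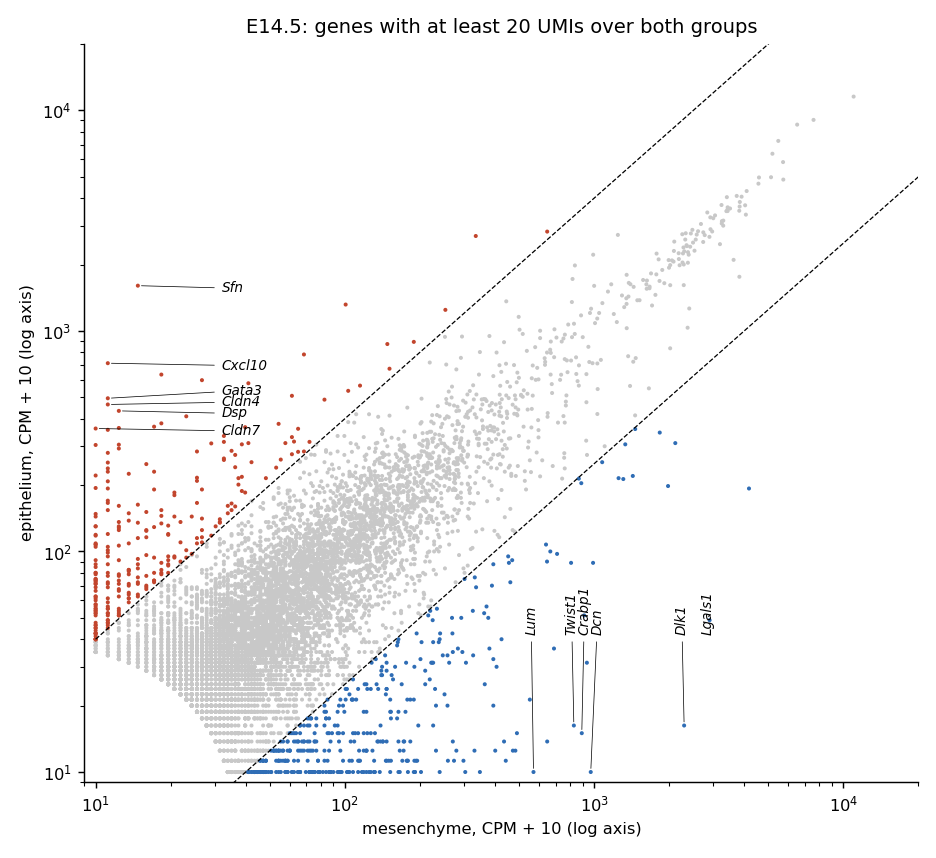
CPM of summed UMIs plus 10 in epithelium against mesenchyme at E14.5, on log axes, with 1 point per gene with at least 20 UMIs over both groups; coloured points are at least 4-fold apart, 260 toward epithelium and 400 toward mesenchyme, and the 6 genes with the largest ratio in each direction are named.

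With 10 CPM added to both groups, the gene with the largest ratio toward epithelium was Sfn (chromosome 4, 133600556 to 133602168, minus strand), which encodes 14-3-3 sigma, a cytoplasmic adaptor of stratified and simple epithelia. Sfn had 213 to 3408 CPM in every epithelial cell (median 1616) and was detected in 4 of 31 mesenchymal cells. Summed, it stood at 1594 and 4.77 CPM, a log2 ratio of 6.76 with 10 CPM added and a plain ratio of 334 (130 to 1228). The claudin Cldn4 had 53.3 to 1641 CPM in the 29 epithelial cells (median 401) and 1 UMI in all of mesenchyme, a plain ratio of 380 (67.9 to 15067) that rests on that 1 UMI. Cldn7 (chromosome 11, 69964779 to 69967885) ranged from 68.0 to 981 CPM (median 328) and had no mesenchymal UMI, so that it was at least 98.2-fold higher when 3 UMIs are set as the floor. For these 3 genes every epithelial cell was positive, and the epithelial cells with the lowest level lay above all mesenchymal cells. They were picked by their ratios, and the share of all genes that separate the cells so was not counted. Klf5, with a smaller ratio, did so too, with at least 160 CPM in epithelial and at most 154 in mesenchymal cells.

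The other leading epithelial genes were less even between cells. Gata3, a zinc-finger transcription factor of the mammary and skin lineages, was at 485 CPM in epithelium, with UMIs in 28 of 29 cells, and 1.19 in mesenchyme. Trp63, the transcription factor that basal layers of stratified epithelia depend on, was at 294 CPM in epithelium, with 0 to 1048 CPM in a cell (median 194) and UMIs in 23 of 29 cells, and was not detected in mesenchyme. Dach2 (chromosome X, 113297510 to 113836386) was at 295 and 2.39 CPM, with 0 to 935 CPM in an epithelial cell (median 266). Dsp and Jup, both desmosomal plaque proteins, were at 424 and 2.39 CPM and at 270 and 1.19 CPM, and Perp, a desmosome-associated membrane protein, at 346 and 1.19 CPM. The chemokine gene Cxcl10 was an exception among these genes. It was at 704 CPM in summed epithelium, but 10 of 29 cells had none, the median was 72.3, the highest cell reached 4166, and this cell alone held 24.0% of the UMIs.

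In mesenchyme, the largest ratio with 10 CPM added was that of Dlk1 (chromosome 12, 109452823 to 109463336), an imprinted gene for a membrane-bound protein of the Delta family. Dlk1 had 465 to 6190 CPM in the 31 mesenchymal cells (median 1738) and was detected in 4 epithelial cells, with 2286 and 6.25 CPM in the sums, a ratio of 366 (156 to 1127). Dcn (chromosome 10, 97479609 to 97518143), which encodes the collagen-binding proteoglycan decorin, was detected in all 31 mesenchymal cells at 45.8 to 3171 CPM (median 1021) and in no epithelial cell, at least 256-fold higher. The related proteoglycan gene Lum was in 27 mesenchymal cells and no epithelial cell, at least 149-fold higher. The ranges of Dlk1 and Dcn in mesenchymal cells show every cell positive.

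Other leading mesenchymal genes belonged to the matrix and to transcription factors. Col6a1 and Col6a2, chains of the microfibrillar collagen VI, were detected in 31 of 31 mesenchymal cells each, at 480 and 462 CPM against 4 and 2 UMIs in all of epithelium. Fbn2, a fibrillin, stood at 432 and 1.25 CPM, and Postn, encoding the matricellular protein periostin, at 638 and 3.75. Twist1 (chromosome 12, 33957671 to 33959829) had 0 to 1826 CPM in a mesenchymal cell (median 798) and stood at 819 against 6.25 CPM, and its relative Twist2 at 338 CPM with no epithelial UMI. Zeb2, a repressor of epithelial genes such as Cdh1, stood at 473 and 2.50 CPM, with UMIs in 22 of 31 mesenchymal cells. Crabp1, a retinoic acid binding protein, varied widely, from 0 to 4320 CPM with a median of 183 and 24 positive cells of 31. Lgals1, a galectin, was the leading mesenchymal gene most often seen in epithelium, with UMIs in 15 of 29 epithelial cells and 38.8 CPM, against 2895 CPM in mesenchyme, where cells ranged from 1301 to 5688.

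The sequences upstream of 4 of the leading genes and of the epithelial factor Grhl3 are shown because the repressors Zeb1, Zeb2, Snai1 and Snai2 are known to bind the E-box CAGGTG, read CACCTG on the other strand, near the start sites of epithelial genes. Each stretch is the 250 bases before a RefSeq start site on GRCm38.p6 (mm10), written 5′ to 3′ on the gene's strand, with CAGGTG or CACCTG in capitals. They lie at chr4:133602169-133602418 for Sfn (minus strand), chr5:134946935-134947184 for Cldn4 (minus), chr4:135573633-135573882 for Grhl3 (minus), chr11:69964529-69964778 for the upstream start of Cldn7 (plus) and chr12:33957421-33957670 for Twist1 (plus).
Sfn: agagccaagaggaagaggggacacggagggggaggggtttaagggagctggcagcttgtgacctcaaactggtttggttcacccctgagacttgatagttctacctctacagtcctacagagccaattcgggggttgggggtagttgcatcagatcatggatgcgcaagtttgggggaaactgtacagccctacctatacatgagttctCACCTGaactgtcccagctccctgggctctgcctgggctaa
Cldn4: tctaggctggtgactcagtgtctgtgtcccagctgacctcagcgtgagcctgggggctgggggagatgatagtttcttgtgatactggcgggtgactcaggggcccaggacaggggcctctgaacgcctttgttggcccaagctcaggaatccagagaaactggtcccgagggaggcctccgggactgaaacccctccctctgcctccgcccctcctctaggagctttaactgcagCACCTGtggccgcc
Grhl3: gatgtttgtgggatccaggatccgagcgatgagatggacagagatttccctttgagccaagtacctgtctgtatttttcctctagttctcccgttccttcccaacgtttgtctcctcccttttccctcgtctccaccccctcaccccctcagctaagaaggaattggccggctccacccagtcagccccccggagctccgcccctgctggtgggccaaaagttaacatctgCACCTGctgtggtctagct
Cldn7: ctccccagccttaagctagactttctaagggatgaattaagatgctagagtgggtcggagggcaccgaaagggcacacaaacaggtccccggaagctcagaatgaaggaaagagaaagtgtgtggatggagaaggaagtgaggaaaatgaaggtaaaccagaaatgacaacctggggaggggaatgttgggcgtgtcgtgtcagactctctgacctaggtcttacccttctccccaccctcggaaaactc
Twist1: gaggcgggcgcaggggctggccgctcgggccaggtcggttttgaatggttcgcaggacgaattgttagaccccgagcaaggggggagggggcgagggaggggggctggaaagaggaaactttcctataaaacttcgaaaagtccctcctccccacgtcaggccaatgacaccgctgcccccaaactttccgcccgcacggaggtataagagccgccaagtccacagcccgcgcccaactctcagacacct
The E-box lies 41 bases before the start of Sfn, 14 before that of Cldn4 and 19 before that of Grhl3, and the stretches of Cldn7 and Twist1 hold none.

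Promoter windows of 300 bases (250 before to 50 after a start site) were found for 8 of the 12 leading genes in each direction. At least 1 window held CAGGTG or CACCTG in 4 of the 8 epithelial genes (Sfn, Cldn4, Dsp and, at its second start site, Cldn7), not in Gata3, Cxcl10, Jup or Dach2, and in 0 of the 8 mesenchymal genes. Over the 186 of 260 epithelial genes with a window, 72 of 276 windows held it (26.1%). Over the 290 of 400 mesenchymal genes with a window, 42 of 372 did (11.3%). The share was 15.4% of the 8592 windows of all genes with at least 20 UMIs and 20.2% of all 32851 windows. The shares of other motifs were closer together. GCCNNNGGC, bound by AP-2 factors, was in 23.6% of epithelial and 23.9% of mesenchymal windows (25.7% of those of all genes with at least 20 UMIs). AACNGGTT, bound by Grainyhead-like factors, was in 2.54% and 2.15% (1.76%), and CACCC, bound by Krüppel-like factors, in 70.7% and 66.7% (62.3%). Both strands were searched, GCCNNNGGC reads alike on both, and a CACCC match can share at most 1 letter with a CAGGTG match. These matches describe letters and no test was made.

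Genes of cell junctions lay almost entirely toward epithelium. Of 17 tight junction genes, 11 had at least 20 UMIs. Of these, 9 were at least 4-fold higher in epithelium (against 3.08% of all genes) and none in mesenchyme (against 4.74%). The median log2 ratio was 3.13 against 0.03 over all genes. As 11 of the 17 had no mesenchymal UMI, such members could pass the minimum only through epithelium, and the count is a description. Summed per cell, the 17 genes had 223 to 3317 CPM in epithelial cells (median 1504) and 0 to 216 in mesenchymal cells (median 0). The cells of the groups did not overlap, but the lowest epithelial and the highest mesenchymal cell lay close together. Like Cldn7, Cldn6 (138 CPM), Marveld2 (97.5 CPM) and Ocln, encoding occludin (77.5 CPM), had no mesenchymal UMI, whereas Cldn4 had 1. The exceptions were Pard6b, a polarity protein, with a log2 ratio of 1.86, and Cldn1, the barrier claudin of the epidermis, which stood at 10.0 CPM in epithelium and 23.9 in mesenchyme. Of 20 genes of adherens junctions, desmosomes and gap junctions, 12 of 13 with enough UMIs were past 4-fold toward epithelium, with a median of 3.05. As 11 of the 20 had no mesenchymal UMI, this count is likewise a description. Summed per cell, the 20 genes overlapped, with 184 to 3641 CPM in epithelial and 0 to 275 in mesenchymal cells. Cdh1, which encodes E-cadherin, stood at 220 and 1.19 CPM, Dsg2 at 134 and 0, and Pkp3 at 120 and 0. The remaining gene, Dsc3, was at 25.0 and 0 CPM with a log2 ratio of 1.81. Gja1, the gap junction protein connexin 43, differed from the others in its presence in mesenchyme, with UMIs in 16 of 31 cells and 498 against 51.3 CPM.

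Genes that attach epithelium to its basement membrane were also on the epithelial side, with smaller ratios. Of 13 such genes, 9 of 11 with enough UMIs were past 4-fold toward epithelium and none toward mesenchyme (median 2.52). Among all genes these shares were 3.08% and 4.74%. As 5 of the 13 had no mesenchymal UMI, this count too is a description. Sums of these genes per cell overlapped, with 0 to 2085 CPM in epithelial and 0 to 443 in mesenchymal cells. Col17a1, the transmembrane collagen of hemidesmosomes, stood at 115 and 2.39 CPM, Lama3, a laminin chain, at 70.0 and 0 CPM, and Itga6, the laminin-binding integrin alpha chain, at 244 and 32.2 CPM. Dst, which encodes a plakin with a form in hemidesmosomes, was within 4-fold at 159 and 50.1 CPM. By contrast, the nidogens, linker proteins of the same membrane, were mesenchymal. Nid1 stood at 0 and 181 CPM and Nid2 at 0 and 84.7. The collagen IV chains Col4a1 (90.0 and 70.4 CPM) and Col4a2 (57.5 and 40.6) and the laminin chain Lamc1 (65.0 and 60.9) had intervals of the ratio that include 1.

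Of 22 epithelial transcription and splicing factors, 13 had enough UMIs. Of them, 12 were past 4-fold toward epithelium, against 3.08% of all genes, with a median of 3.82. As 12 of the 22 had no mesenchymal UMI, such members could pass the minimum only through epithelium, and the count is a description. Apart from Trp63, the AP-2 genes Tfap2a and Tfap2c had 184 and 108 CPM in epithelium with no mesenchymal UMI, and Tfap2b had 198 and 1.19. Grhl3 and Ovol1, which are known to maintain epithelial identity, had 228 and 243 CPM against 1.19 each. Klf5 was detected in 29 epithelial and 13 mesenchymal cells, at 569 and 31.0 CPM. Esrp1, a splicing factor of epithelial isoforms, was at 110 and 1.19 CPM. Grhl1, at 25.0 and 1.19 CPM, was within 4-fold on this scale (1.65). In a list of 12 further keratins, only Krt17 had enough UMIs, at 183 and 1.19 CPM. Krt10, listed with the suprabasal markers, was within 4-fold at 38.8 and 22.7 CPM.

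Factors known from the mammary placode and bud were mixed. Of 22 genes, 18 had enough UMIs, of which 5 were past 4-fold toward epithelium (Gata3, Dach2, Sox11, Sox9 and Lef1) and 2 toward mesenchyme (Nfix and Hoxb9). The median was 1.06. Over all genes, 3.08% were past 4-fold toward epithelium and 4.74% toward mesenchyme. Sox11 stood at 862 and 138 CPM, Sox9 at 300 and 47.7, and Lef1, the effector of Wnt signalling, at 274 and 58.5, with UMIs in 29 epithelial and 16 mesenchymal cells. With a log2 ratio of 2.05 Lef1 lay at the limit, and under 5 of the alternative settings it was within 4-fold (1.58 to 1.99). Tbx3, which is required for placode formation, differed little, at 215 CPM in epithelium and 140 in mesenchyme, a ratio of 1.54 (1.21 to 1.97), with UMIs in 24 of 29 and 20 of 31 cells. Nfix stood at 16.3 and 209 CPM and was in all 31 mesenchymal cells. Its relative Nfib had similar levels in both, 702 and 1020 CPM.

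Secreted and surface proteins of the bud lay toward epithelium wherever they were past 4-fold. Of 37 genes, 25 had enough UMIs, 9 of which were past 4-fold toward epithelium and 0 toward mesenchyme (median 1.72). Among all genes these shares were 3.08% and 4.74%. The Wnt ligands Wnt6 (358 and 7.16 CPM), Wnt3 (156 and 1.19) and Wnt10b (70.0 and 1.19) were among them. Pthlh, the hormone that patterns the mammary mesenchyme, stood at 239 and 5.97 CPM and was detected in 24 epithelial and 2 mesenchymal cells. The chemokine Cxcl14 was at 882 and 179 CPM and Ndnf at 320 and 51.3. Bmp2 (244 and 72.8 CPM) and Sostdc1, a Bmp and Wnt antagonist (166 and 41.8), had higher levels in epithelium within 4-fold.

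In the epithelial group, genes that the study associated with the basal and luminal directions of E15.5 epithelium were both detected, the luminal genes unevenly. The study chose such genes by clusters of its E15.5 library and/or by trajectories that included its E14.5 epithelial cells. The lists are therefore not independent evidence of a direction. Of the 8 basal genes, 5 of 7 with enough UMIs were past 4-fold over mesenchyme, and of the 7 luminal and hybrid genes, 3 of 4 were. Among all genes, 3.08% were past 4-fold toward epithelium and 4.74% toward mesenchyme. The basal genes summed to 451 to 4411 CPM in an epithelial cell (median 2006) and the luminal and hybrid genes to 51.0 to 1265 (median 326). Every epithelial cell held UMIs of both lists, but 182 of the 312 luminal and hybrid UMIs were of Grhl3, a general epithelial factor, and 51 of Cd74, the invariant chain of antigen presentation, in 19 cells. The other luminal genes were detected in fewer cells, with UMIs of Krtdap in 9 of 29 cells, of Anxa1 in 8, of Plet1 in 4, of Lgals3 in 1 and of Ly6d in 0. Krtdap, also a suprabasal marker, stood at 42.5 and 0 CPM and was past 4-fold (2.39). Against mesenchyme, the basal genes were 5.59 times higher (4.93 to 6.35) and the luminal and hybrid genes 109 times (37.0 to 531). Of the 6 genes the study used for sub-epithelial and dermal mesenchyme, 4 were past 4-fold toward mesenchyme (Crabp1, Vcan, Plagl1 and Cdkn1c), whereas Lef1 was toward epithelium, at the limit of 4-fold, and Esr1, the oestrogen receptor gene, was at 51.3 and 21.5 CPM.

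Genes of the extracellular matrix lay mostly toward mesenchyme. Of 21 collagen genes outside the definition, 14 had enough UMIs, 10 were past 4-fold toward mesenchyme and 1 toward epithelium (median -3.11). Among all genes these shares were 4.74% and 3.08%. Col6a3 had 294 CPM in mesenchyme and no epithelial UMI, Col5a2 542 and 11.3, and Col14a1, a fibril-associated collagen, 425 and 3.75. The collagen on the epithelial side was Col18a1, of the basement membrane, at 131 CPM in epithelium and 16.7 in mesenchyme. Of 40 other matrix genes, 38 had enough UMIs, 26 were past 4-fold toward mesenchyme and 0 toward epithelium (median -2.41). Summed per cell, these 40 genes had 814 to 3343 CPM in epithelial cells and 6480 to 28159 in mesenchymal cells, which did not overlap. Sparc, a collagen-binding glycoprotein, was in every cell of both groups, at 336 and 1823 CPM, while Ogn, a small proteoglycan, had 1.25 and 289 CPM. Matrix genes within 4-fold included Mmp14 (56.3 and 165 CPM), Timp3 (76.3 and 52.5), Hspg2, encoding perlecan (58.8 and 40.6), and Lamb1 (75.0 and 116).

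**Figure D3:**
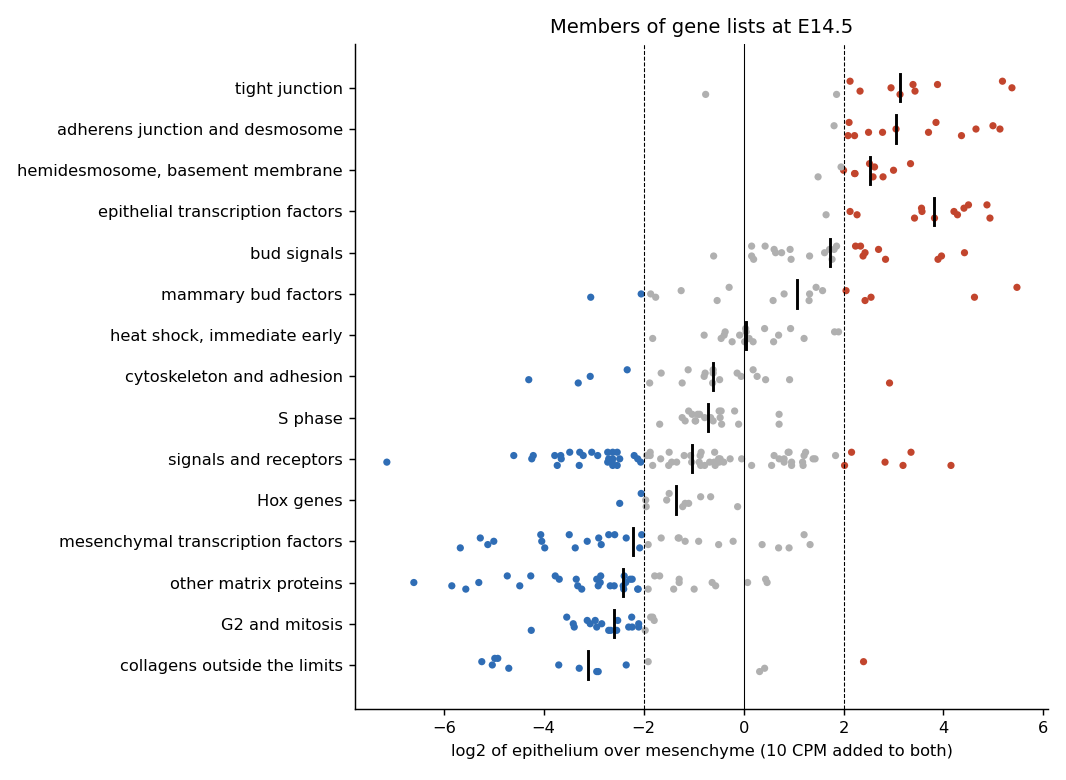
Log2 ratio of epithelium over mesenchyme at E14.5 (10 CPM added to both) for each member of 15 gene lists with at least 20 UMIs; each point is 1 gene, coloured where it is past 4-fold, the bars are medians and the dashed lines mark 4-fold. Junction genes and epithelial factors lie to the right (medians 2.52 to 3.82), matrix, collagen and mitosis genes to the left (-2.41 to -3.11).

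Of 41 mesenchymal transcription factors, 30 had enough UMIs, of which 17 were past 4-fold toward mesenchyme and 0 toward epithelium, with a median of -2.21. Among all genes these shares were 4.74% and 3.08%. As 18 of the 41 had no epithelial UMI, such members could pass the minimum only through mesenchyme, and the count is a description. Zeb1 had 154 CPM in mesenchyme and Snai1 31.0, both with no epithelial UMI. Snai2, of the same family as Snai1, was not mesenchymal by this measure, at 183 CPM in epithelium and 109 in mesenchyme, and UMIs in 23 of 29 and 24 of 31 cells. Prrx1, a homeobox gene of limb and body wall mesenchyme, stood at 2.50 and 391 CPM, and Osr1 at 0 and 156. The T-box genes Tbx18, Tbx5 and Tbx15 had 77.6, 64.4 and 62.1 CPM in mesenchyme and no epithelial UMI. Foxp1 was in all epithelial cells at 439 CPM and in 24 mesenchymal cells at 168. Of 27 Hox genes, 12 had enough UMIs and 2 were past 4-fold, both toward mesenchyme, Hoxd8 (3.75 and 66.8 CPM) and Hoxb9 (2.50 and 41.8). The share over all genes was 4.74% toward mesenchyme, and 12 genes are too few to compare with it. Hoxc8 was less apart, at 70.0 and 135.

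Cytoskeletal genes commonly used to contrast the tissues were mostly within 4-fold. Of 22 genes, 21 had enough UMIs. Past 4-fold toward mesenchyme, against 4.74% of all genes, were Cdh11, a mesenchymal cadherin, Ncam1, Tpm2 and Cd44. Vim, which encodes vimentin, had UMIs in 27 of 29 epithelial cells and stood at 290 and 1092 CPM, a ratio of 3.76 (3.25 to 4.37). Tagln, an actin-binding protein of contractile cells, was the only member past 4-fold toward epithelium, at 264 and 26.3 CPM, with UMIs in 17 of 29 epithelial and 5 of 31 mesenchymal cells. Tagln gave 211 of the 307 epithelial UMIs of the 10 pericyte and smooth muscle markers. Acta2, the smooth muscle actin of later myoepithelial cells, was low in both groups, at 23.8 and 25.1 CPM. The 19 heat shock and immediate early genes, which enzymatic dissociation can induce, had a median of 0.05 with none past 4-fold, and summed to 12808 CPM in epithelium and 14503 in mesenchyme.

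Ligands and receptors were compared in 29 pairs known from textbooks. They were chosen with earlier results of these data known and are not an independent set. The study itself predicted the pairs of Pthlh with Pth1r and of Fgf10 with Fgfr2 from other libraries of this series. In explants it also reported faster branch growth with added FGF10 and failed growth under an FGFR inhibitor. In 5 pairs the ligand was past 4-fold in one tissue and the receptor in the other. Over all genes, 3.08% were past 4-fold toward epithelium and 4.74% toward mesenchyme, and the share over all gene pairs was not counted. From epithelium to mesenchyme, Pthlh (239 and 5.97 CPM in epithelium and mesenchyme) was paired with its receptor gene Pth1r (3.75 and 173), and Pdgfa (156 CPM in epithelium, 10.1 times the mesenchymal level, 5.68 to 19.5) with Pdgfra (1.25 and 264). From mesenchyme to epithelium, Fgf10 (1.25 and 37.0 CPM) and Fgf7 (0 and 33.4) were paired with Fgfr2 (324 and 22.7), and the Wnt amplifier Rspo1 (2.50 and 162) with its receptor Lgr6 (52.5 and 2.39). The files give gene-level counts, so the epithelial and mesenchymal splice forms of Fgfr2 were not resolved. The pairs of Fgf10 and Fgf7 share the receptor Fgfr2. Both ligands passed the minimum of 20 UMIs through mesenchyme, with 1 and 0 UMIs in epithelium. The count of 5 pairs is a description and depended on the setting. With under 3 UMIs of the other group's sum in every cell, 3 pairs were past 4-fold in opposite groups (Pthlh, Wnt6 with Fzd2, and Rspo1), since Fgf10 (-1.99), Fgf7 (-1.45) and Pdgfa (1.87) were then within it. Cells thinned to 5000 UMIs gave 3 pairs with enough UMIs, 50 CPM added gave only that of Pthlh, and leaving out the Scrublet calls gave 6.

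**Figure D4:**
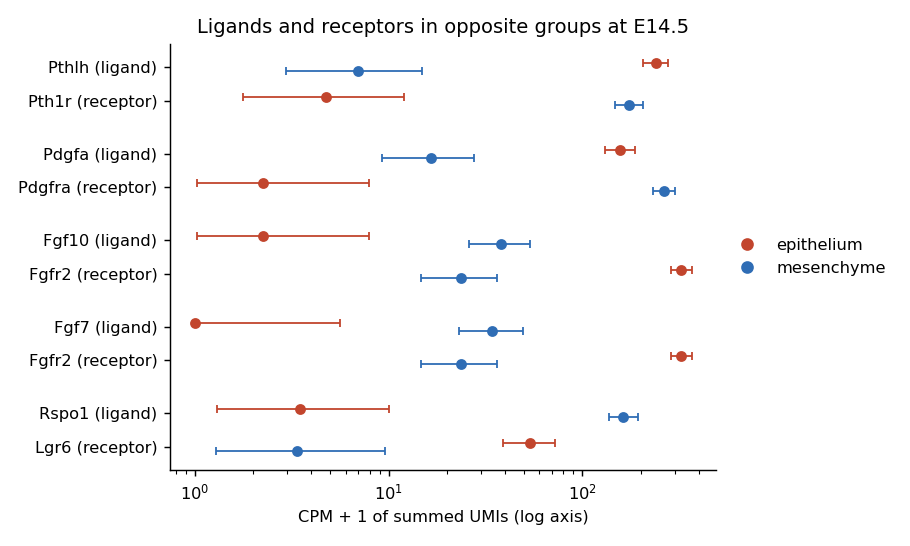
CPM plus 1 of summed UMIs in epithelium and mesenchyme at E14.5 on a log axis, with exact 95% Poisson intervals that cover counting error only, for the 5 pairs whose ligand and receptor were past 4-fold in opposite groups. Pthlh and Pdgfa lie toward epithelium with their receptors toward mesenchyme, and Fgf10, Fgf7 and Rspo1 the other way round; with 50 CPM added only the pair of Pthlh was past 4-fold.

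In most other pairs a member did not differ by 4-fold or had few UMIs. Wnt6 and Wnt10b were epithelial while their paired receptors Fzd2 and Fzd1 were within 4-fold. Wnt5a and its receptor Ror2 were both mesenchymal, the former at 46.3 and 360 CPM. The growth factor genes Igf1 (2.50 and 222 CPM) and Igf2 (78.8 and 980), the chemokine Cxcl12 (2.50 and 112), the heparin-binding factor Ptn (188 and 1969), Kitl (32.5 and 184) and the guidance cue Slit2 (152 CPM in mesenchyme, 20.2 times the epithelial level) were past 4-fold toward mesenchyme, with receptors within 4-fold or under 20 UMIs. Notch1 stood at 400 and 13.1 CPM, while its ligand Jag2 was at 38.8 and 4.77, within 4-fold on this scale. Shh had no UMI in either group. Across the wider list of 101 signals and receptors of mesenchyme, 77 had enough UMIs, 27 were past 4-fold toward mesenchyme and 6 toward epithelium (Notch1, Fgfr2, Erbb3, Erbb4, Fst and Pdgfc). Over all genes, 4.74% were past 4-fold toward mesenchyme and 3.08% toward epithelium.

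The groups also differed in genes of the cell cycle, and mainly in those of its last phases. All 22 genes of G2 and mitosis had enough UMIs, and 18 were past 4-fold toward mesenchyme (median -2.60), against 4.74% of all genes. The list summed to 376 CPM in epithelium and 4186 in mesenchyme, a ratio of 11.1 (9.88 to 12.6). Per cell it ran from 0 to 3484 CPM in epithelium (median 107) and from 0 to 15301 in mesenchyme (median 157), so that the medians were close and the difference lay in the highest cells. Top2a, which untangles DNA before division, had 26.3 and 680 CPM, with UMIs in 7 of 29 epithelial and 13 of 31 mesenchymal cells. In epithelium, 1 cell held 90.5% of the UMIs of Ube2c and 88.9% of those of Ccnb2. The 20 S phase genes differed by 1.67 times (1.51 to 1.85), with none past 4-fold. Among inhibitors, Cdkn1c was in every cell of both groups, at 300 and 2106 CPM. When the 16 cells of neither group were added to epithelium, 11 of the 22 G2 and mitosis genes were past 4-fold.

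The share of cells with at least 2 UMIs of Top2a and Mki67 together was 5 of 29 in epithelium (17.2%, 5.85 to 35.8) and 12 of 31 in mesenchyme (38.7%, 21.8 to 57.8). After each cell was thinned to 5000 UMIs, it was 1 of 29 (3.45%, 0.0873 to 17.8) and 8 of 31 (25.8%, 11.9 to 44.6). The same thinned share was 23.4% in epithelium and 23.3% in mesenchyme at E13.5, and 13.1% (10.2 to 16.5) and 26.5% at E15.5. The interval of E14.5 epithelium includes the E15.5 share and overlaps the interval at E13.5 (13.8 to 35.7). At those stages no G2 or mitosis gene was past 4-fold, and the list was 1.53 times (1.44 to 1.62) higher in mesenchyme at E13.5 and 2.73 times (2.66 to 2.81) at E15.5. These intervals, like that of the E14.5 ratio, take each UMI as a separate count and do not cover the spread between cells.

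The contrast was then read in the libraries of the adjacent stages, with cells chosen by the same limits, to see how the genes of E14.5 stood in other libraries. E13.5 gave 64 epithelial, 129 mesenchymal and 42 other cells, and E15.5 gave 465, 279 and 72. Past 4-fold were 210 genes (2.05%) toward epithelium and 309 (3.02%) toward mesenchyme of 10244 at E13.5, and 239 (1.84%) and 281 (2.17%) of 12967 at E15.5. Of the epithelial genes of E14.5 that both libraries could test, 123 of 248 were past 4-fold at E13.5 (49.6%, and 77.8% of the 158 of E13.5) and 159 of 258 at E15.5 (61.6%, and 74.6% of 213). Of the mesenchymal genes, 218 of 393 were at E13.5 (55.5%, and 73.2% of 298) and 192 of 392 at E15.5 (49.0%, and 76.5% of 251). No gene was past 4-fold in the opposite direction at either stage. The same genes defined the cells of each library, and stage cannot be told apart from library, session or, for E15.5, the version of the counting software. Skin markers of the epithelial groups also differed between stages. In the order E13.5, E14.5 and E15.5, the 10 periderm markers summed to 2552, 819 and 1857 CPM in epithelium, and the 12 suprabasal markers to 228, 500 and 2785. How far skin cells shift the ratios between stages was not tested.

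Most leading genes kept large ratios at all 3 stages. The log2 ratio of Sfn was 6.11, 6.76 and 5.78 in the order of the stages, that of Cldn4 5.89, 5.37 and 5.79, and that of Cldn7 4.63, 5.18 and 5.41. For Dlk1 it was -6.99, -7.14 and -6.62, and for Twist1 -5.53, -5.67 and -5.82. A few were further apart. Gata3 had 3.71, 5.47 and 3.59, Trp63 3.53, 4.93 and 3.00, and Dach2 2.90, 4.62 and 3.64, each with the largest value at E14.5. Cxcl10 had 3.05 at E13.5 and 3.25 at E15.5, both below its E14.5 value. Postn had -2.54 at E13.5 and -5.56 and -5.26 later. Pthlh had 3.31, 3.96 and 1.07, whereas Pth1r had -3.56, -3.73 and -2.67. Of the other pairs in opposite groups, Fgf10 had -1.34 at E13.5 and -0.63 at E15.5, and Lgr6 had 1.37 and 0.73. Fgf7 had -2.40 and -1.51 at these stages, and Pdgfa 3.11 and 1.77. Fgfr2 (2.50 and 2.83), Rspo1 (-3.09 and -3.85) and Pdgfra (-4.37 and -4.35) were past 4-fold at both. Tagln had -0.11 at E13.5 and 0.74 at E15.5, against 2.92 at E14.5. It stood at 110 CPM in epithelium and 120 in mesenchyme at E13.5, and at 344 and 203 at E15.5. Its mesenchymal level was thus higher at both stages than at E14.5, and its epithelial level lower at E13.5 and higher at E15.5. Irx2 had the opposite sign at E13.5, with 1.30, against -1.86 at E14.5 and -2.54 at E15.5. The leading genes, among them Gata3, Trp63, Dach2 and Cxcl10, were chosen by their ratios at E14.5. That choice by itself favours a larger value at E14.5 than at the other stages. With 1 library per stage these differences were not tested.

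**Figure D5:**
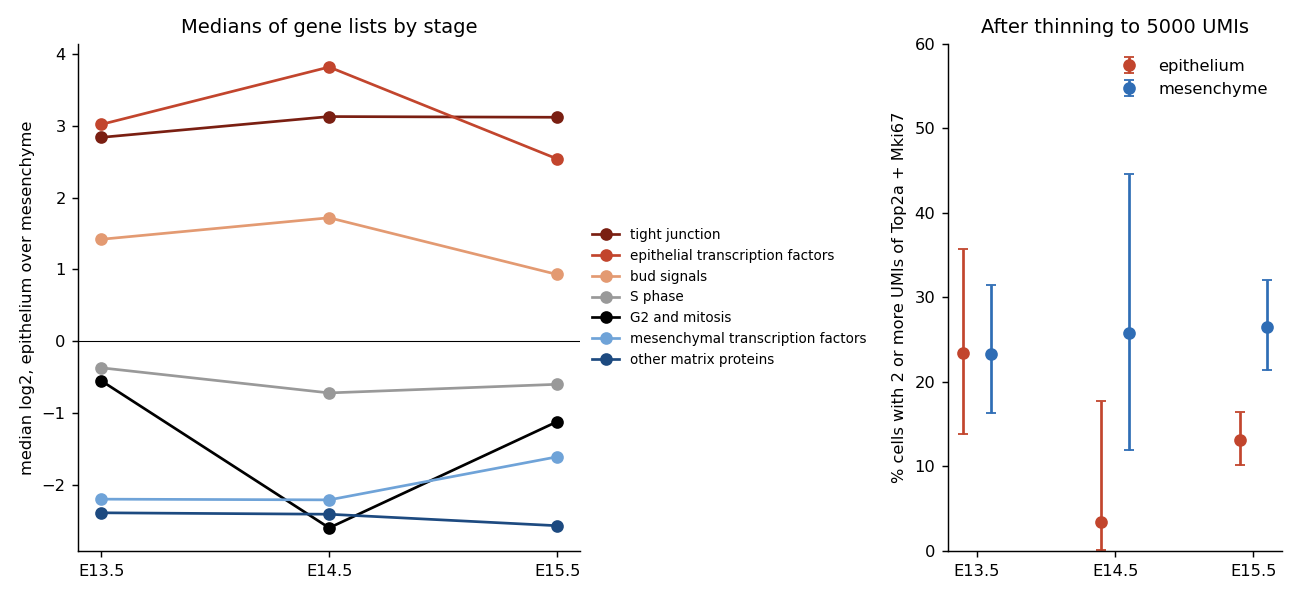
Left, median log2 ratio of epithelium over mesenchyme of 7 gene lists in the libraries of the 3 embryonic stages, and right, percent of cells with at least 2 UMIs of Top2a and Mki67 after thinning to 5000 UMIs, with exact 95% binomial intervals that cover counting error only. The G2 and mitosis list has medians of -0.55, -2.60 and -1.12, and E14.5 epithelium the lowest share, 3.45%.

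The 16 cells of neither group did not combine both sums. All 16 met the limits on the epithelial and collagen sums and missed only the minimum of Krt8 and Krt18. Their epithelial sum was 25 to 188 UMIs and their collagen sum 0 to 5, and 0 of 16 had 10 or more of both, which allows a share of up to 18.8% (3 cells of 16). Of all 76 kept cells, 1 had 10 or more of both sums, a mesenchymal cell with 303 UMIs of collagens and 18 of the epithelial sum, 16 of them of Epcam. A doublet caller (Scrublet) marked 27 of the 76 cells, 7 of 29 epithelial, 16 of 31 mesenchymal and 4 of 16 other cells. No cell was removed on its calls.

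These 16 cells carried keratinocyte genes at other levels than the epithelial group. Krt14 was similar, at 1387 against 1698 CPM, but Krt15, a basal epidermal keratin that is part of the definition, stood at 450 CPM against 160. Krt1 and Krt10, keratins of suprabasal epidermis, stood at 209 and 296 CPM against 2.50 and 38.8. However, 73 of the 99 UMIs of Krt1 and 121 of the 140 of Krt10 lay in 1 and the same cell. The median over cells was 0 in both groups for Krt1, and 46.0 against 30.9 CPM for Krt10. Fabp5, a fatty acid binding protein of keratinocytes, was at 1721 against 300 CPM, with 511 of its 815 UMIs in that same cell. Its median over cells was 547 against 137 CPM. Genes of the bud and its junctions were uneven. Cldn7 stood at 46.5 against 351 CPM, Ndnf at 48.6 against 320, Dach2 at 82.3 against 295 and Pthlh at 78.1 against 239. Wnt10b was close, at 65.5 against 70.0 CPM with UMIs in 13 of 16 and 21 of 29 cells, Wnt6 was at 249 against 358, and Cxcl14 was higher in the 16 cells, at 1073 against 882. The 37 bud signals summed to a median of 3233 CPM in a cell against 3667 in the epithelial group.

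The 16 cells also held RNA of the proteoglycan Dcn and of Postn, at 133 and 118 CPM, against 0 and 3.75 in the epithelial group. Dcn was detected in 10 of the 16 cells, at most 14 UMIs in a cell, while Col1a1 was at 21.1 CPM, close to the 16.3 of the epithelial group, and Twist1 at 2.11. The 2 mesenchymal genes were thus not accompanied by the collagen or by Twist1. In a division made after the values were seen, 4 of the 16 cells had at least 5 UMIs of Dach2 (7 to 10 each). These 4 had 226 CPM of Pthlh, 162 of Cldn7, 21.6 of Dcn and 108 of Krt15. The other 12 had 18.4 CPM of Cldn7, 160 of Dcn, 147 of Postn, 533 of Krt15 and 1231 of Cxcl14, with 7.88 of Dach2. When all 16 cells were counted as epithelium, 201 genes were past 4-fold toward epithelium and 362 toward mesenchyme.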

How the data were processed

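Single-cell RNA was measured in 4 libraries (E13.5, E14.5, E15.5 and the day of birth), 1 per stage. The authors deposited matrices of raw UMI counts per gene and barcode, made by Cell Ranger against mm10. The submitters' processing notes give version 6.0.0, and the file headers agree except at E15.5, which names 3.1.0 and has another gene list. The deposited matrices start at 500 UMIs per barcode. The E14.5 matrix held 3577372 UMIs, of which kept cells held 2111282. The library of the day of birth was not used in the comparisons, and groups come from the labels' stage and the count limits given above.

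UMIs were summed over the cells of a group and divided by their total (CPM). Intervals are exact Poisson for CPM, exact conditional binomial for ratios and Clopper-Pearson for shares, at 95%. For a share of 0, the limit given is 3 cells of the total. A gene counted as past 4-fold when the ratio with 10 CPM added reached 4 among genes with at least 20 UMIs, the 9 genes of the definition left out. Against 0 UMIs a bound was set with 3 UMIs. The text names the 12 genes with the largest ratio in each direction, members of fixed lists (highest level, largest ratios, exceptions), the genes of 29 pairs, and the markers. Some genes under this rule are not reported here. The members and lists were chosen with earlier results of these data known. A member with 0 UMIs in 1 group could pass the minimum only through the other. Counts of list members past 4-fold are therefore descriptions. Stages were matched by Ensembl identifier. Python 3.11.15, numpy 2.4.6, scipy 1.17.1, pandas 2.3.3, matplotlib 3.10.9 and Scrublet in scanpy 1.11.5 (expected doublets 5%, 15 components) were used, and the ratios were tested on simulated data. Promoter windows are from RefSeq (GRCm38.p6). Gene coordinates are from GENCODE M21. Alternatives covered the cell filters, group limits, doublet calls, thinning, scaling, added CPM and gene filter.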

Additional observations from a re-analysis of the deposited data

Results flagged for a closer look

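Signal outside the comparison was seen among the barcodes that the filters removed. Of the 696 barcodes under 5000 UMIs, 27 held UMIs of 11 skeletal muscle markers, 9 of them at least 10. The markers summed to 335 CPM (298 to 376, 291 UMIs), led by the sarcomeric actin Actc1 with 153 UMIs and the muscle regulator Myog with 50, against 17.1 CPM (11.9 to 23.6) in the kept cells. Of the 35 barcodes with at least 5000 UMIs but over 6% mitochondrial UMIs, 13 met the limits of epithelium (37.1%, 21.5 to 55.1), 2 those of mesenchyme and 20 neither. Their median was 17573 UMIs, with a median mitochondrial share of 8.83%.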

How the results depend on the processing

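No paired analysis was possible because each stage is 1 library and no result comes from a test. The 29 epithelial cells became 45 and the 16 of neither group 0 without the minimum of Krt8 and Krt18. The latter were 28 with a minimum of 3000 UMIs, 26 with a mitochondrial maximum of 10% and 27 when cells needed under 3 UMIs of the other group's sum. The 31 mesenchymal cells became 15 without Scrublet's calls. The 260 epithelial and 400 mesenchymal genes past 4-fold became 139 and 178 with every cell thinned to 5000 UMIs, 109 and 176 among genes with at least 100 UMIs, 488 and 732 with 1 CPM added and 53 and 79 with 50 CPM added. Thinning left 2713 genes to count. The same counts stayed within 1.5 times under the other settings, between 201 and 277 for epithelium and between 362 and 469 for mesenchyme. None of 376 named genes changed sign where it was past 4-fold. Of 190 past 4-fold, 107 were no longer so with 50 CPM added, 20 without the minimum of Krt8 and Krt18, and 19 or fewer under each other setting. The values rest on 60 cells of 1 library from pooled embryos, so differences between embryos are not measured, and a gene with few UMIs has a wide interval.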
